A study of Mus musculus with 3 samples.

Results

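The 38 genes described here run the cell division cycle, from the decision to leave G1 through DNA replication to mitosis. They were chosen by symbol, from a list of textbook cell cycle and replication genes, out of 55536 gene rows, of which 22015 are nuclear-encoded protein-coding genes, and all 38 were found. By role they comprise 10 genes of G1 control, 12 of DNA replication, 4 of nucleotide supply and 12 of mitosis. The 16 genes of replication and nucleotide supply are called the S phase genes below. RNA was measured in bone-marrow-derived macrophages (BMDM) of the mouse strain C57BL/6J, primary cells grown out from marrow precursors in culture. The cells had been stimulated for 20 min with 100 ng/ml Lipid A, the part of bacterial lipopolysaccharide that Tlr4 recognises. Cytosolic RNA was depleted of ribosomal RNA and sequenced as 3 libraries of this 1 condition, labelled biological replicates 1, 2 and 3 and carrying the same donor identifier. The spread between them may therefore be partly technical, and with 1 condition no gene can be called induced or repressed. In RNA from a whole culture, fewer dividing cells and less RNA per dividing cell cannot be told apart.

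A cell that commits to division makes D-type cyclins, which activate Cdk4 and Cdk6 and lead to phosphorylation of the retinoblastoma protein Rb1. E2f1 and related factors are then released from Rb1 and switch on the genes that load the Mcm helicase and copy DNA. Genes of mitosis are switched on later in the cycle, and many of them are kept off in resting cells through a promoter element called the cell cycle homology region (CHR). Macrophages grown from marrow divide in response to the growth factor receptor Csf1r, and stimulation through Tlr4 is known to slow that division.

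Promoter sequences of the S phase and mitosis genes of highest level are shown first, because the elements searched for in both classes can be read in them. The windows are from RefSeq on GRCm38.p6, run from 250 bases before to 50 bases after the annotated start site, and are given 5′ to 3′ on the strand of the gene. All 4 genes lie on the minus strand. Pcna is at chr2:132253131-132253430, Mcm6 at chr1:128359656-128359955, Cdk1 at chr10:69352863-69353162 and Top2a at chr11:99024140-99024439. Capitals mark matches, on either strand, to an E2F octamer (TTTCCCGC or TTTCGCGC or TTTGCCGC or TTTGGCGC), to the CHR core TTTGAA, or to the CCAAT box.
Pcna: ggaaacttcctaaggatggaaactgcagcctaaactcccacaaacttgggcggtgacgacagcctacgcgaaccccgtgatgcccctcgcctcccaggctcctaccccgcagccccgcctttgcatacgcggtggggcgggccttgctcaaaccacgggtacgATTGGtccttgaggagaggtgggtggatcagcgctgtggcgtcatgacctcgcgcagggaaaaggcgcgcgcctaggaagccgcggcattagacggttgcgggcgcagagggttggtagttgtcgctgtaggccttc
Mcm6: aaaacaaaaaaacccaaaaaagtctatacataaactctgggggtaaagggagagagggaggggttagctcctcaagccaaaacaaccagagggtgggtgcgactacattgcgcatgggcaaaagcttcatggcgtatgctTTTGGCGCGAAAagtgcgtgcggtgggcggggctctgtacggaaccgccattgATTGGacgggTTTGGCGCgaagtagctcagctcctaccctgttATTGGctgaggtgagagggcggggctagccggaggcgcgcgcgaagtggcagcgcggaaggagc
Cdk1: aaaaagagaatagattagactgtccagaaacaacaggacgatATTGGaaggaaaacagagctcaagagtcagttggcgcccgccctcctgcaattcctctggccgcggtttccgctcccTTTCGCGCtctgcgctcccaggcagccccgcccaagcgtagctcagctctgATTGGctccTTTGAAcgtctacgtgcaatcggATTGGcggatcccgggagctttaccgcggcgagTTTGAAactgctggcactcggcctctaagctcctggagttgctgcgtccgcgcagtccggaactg
Top2a: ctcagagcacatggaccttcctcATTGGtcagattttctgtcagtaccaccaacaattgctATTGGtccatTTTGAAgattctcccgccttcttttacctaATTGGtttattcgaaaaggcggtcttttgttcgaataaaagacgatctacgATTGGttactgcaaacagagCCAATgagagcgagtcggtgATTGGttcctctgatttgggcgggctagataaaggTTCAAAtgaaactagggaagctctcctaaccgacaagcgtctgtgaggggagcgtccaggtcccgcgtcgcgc
In the Mcm6 window an E2F octamer began 110 bases before the start site, a second match on the other strand overlapped it, and another octamer began 47 bases before the start site. The Cdk1 window held 1 E2F octamer, 2 CHR cores, which began 71 and 15 bases before the start site, and 3 CCAAT boxes. The Top2a window held 2 CHR cores and 6 CCAAT boxes and no match to the E2F octamers. For Pcna only 1 CCAAT box matched.

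Windows were found for 31 of the 38 genes in the RefSeq table, where 27025 symbols have one. Of the 10 replication genes with a window, 7 held an E2F octamer (70%), as did 4.33% of expressed protein-coding genes (mean TPM of 1 or more). An octamer was also found in Cdk2 of the 7 G1 control genes, in Cdk1 of the 10 mitosis genes and in none of the 4 nucleotide supply genes. Of 39 other S phase genes with a window 28.2% held an octamer, and of 22 other G1 regulators 31.8%. The CHR core was present in 7 of 10 mitosis genes (70%), namely Mki67, Top2a, Cdk1, Ccnb2, Aurka, Plk1 and Cdc20, in 1 of 10 replication genes (Mcm2) and in 11.6% of expressed genes. CCAAT boxes were found in 9 of 10 mitosis and 8 of 10 replication genes, in 2 of 7 G1 control and in 2 of 4 nucleotide supply genes. They did not separate mitosis from replication genes, and 38.7% of expressed genes held one. A match shows only that the letters are there.

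**Figure D1:**
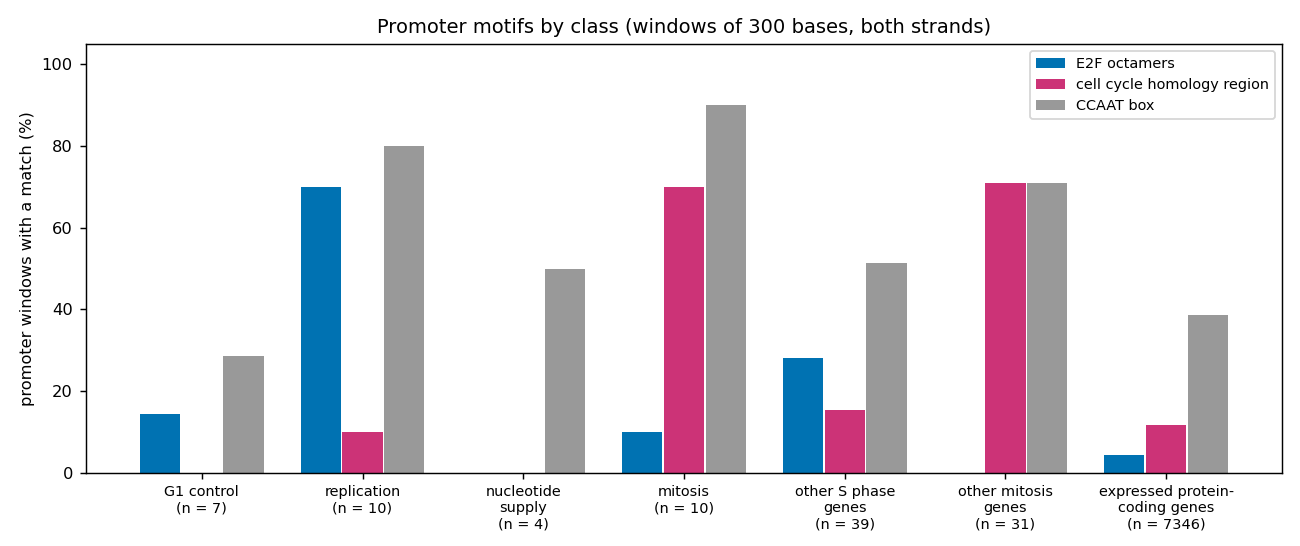
Percent of promoter windows with at least 1 match to an E2F octamer, the CHR core or the CCAAT box, for each class of genes, for other lists of cell cycle genes and for expressed protein-coding genes. E2F octamers are found in 70% of the replication genes and 28.2% of other S phase genes, and the CHR core in 70% and 71.0% of the lists of mitosis genes.

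Replicate 1 was the shallowest library, with 27392626 expected counts, beside 81597761 in replicate 2 and 37176950 in replicate 3. A gene at 0 may still hold up to 3 counts by counting error, which is 0.110, 0.0368 and 0.0808 CPM (counts scaled to library size) in replicates 1, 2 and 3. Levels are given in TPM, a share of all transcripts corrected for transcript length. Nuclear-encoded protein-coding genes held 25%, 22.0% and 19.6% of the TPM in the 3 libraries, so a messenger RNA at a fixed share of all messenger RNA has a lower deposited TPM in replicate 3 than in replicate 1. Libraries were therefore compared in rescaled TPM, in which these genes have the same total in each library. On that scale the median expressed protein-coding gene deviated from its own mean by -0.01, 0.00 and 0.01 log2 units in replicates 1, 2 and 3. All 10 macrophage markers were detected, with a median of 119.6 TPM. None of 10 markers of marrow progenitors and granulocyte precursors reached 1 TPM in every library.

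All 38 genes were present in every library, most of them at low levels. At 1 TPM or more in all 3 libraries were 25 of the 38 (of all protein-coding genes, 40.5% were), and at 1 rescaled TPM all 38 (47.4% of all). The class medians of mean TPM were 6.44 for G1 control, 2.99 for replication, 1.35 for nucleotide supply and 1.06 for mitosis. The median expressed protein-coding gene stood at 6.66 TPM, and 48.5%, 23.5%, 4.98% and 0.884% of expressed genes lay below the respective class medians. At 1 TPM or more in every library were 8 of 10 G1 control, 10 of 12 replication, 2 of 4 nucleotide supply and 5 of 12 mitosis genes. Below 1 TPM in all libraries were Ccnd2, Ccne1, Cdc6, Prim1, Aurka, Plk1, Bub1 and Cdc20, and Rrm2, Tyms, Ccnb1, Ccnb2 and Ccna2 reached it in some libraries only.

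**Figure D2:**
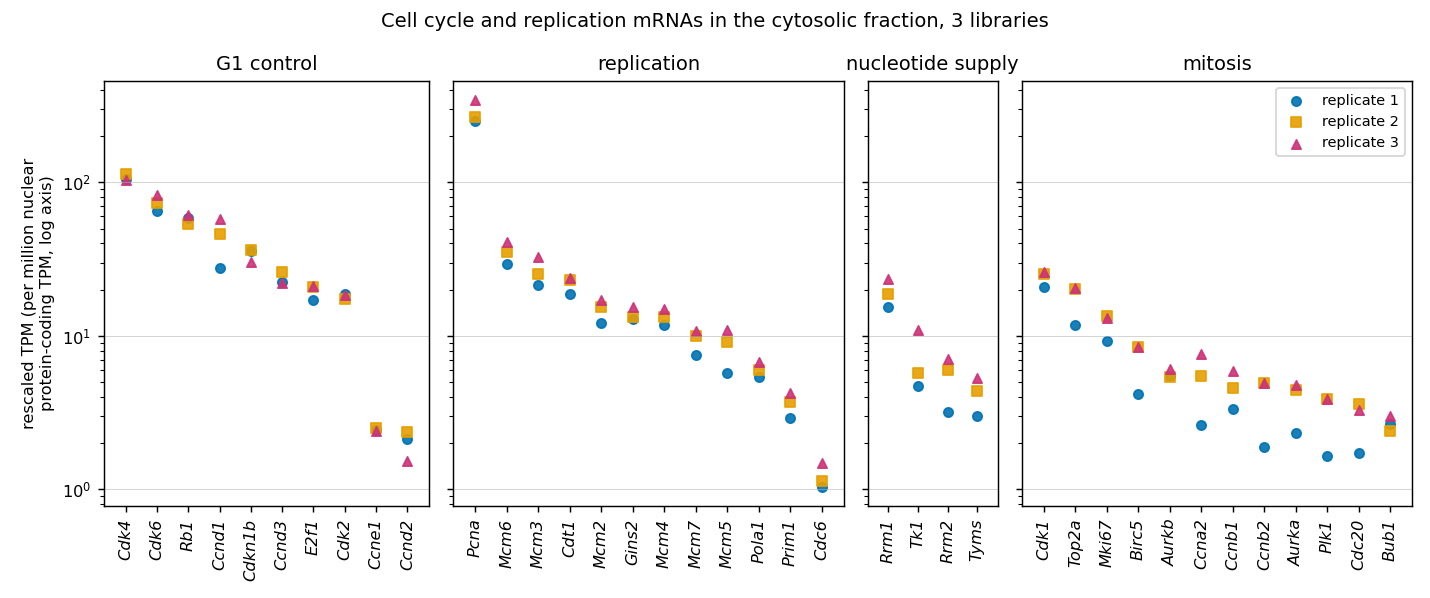
Rescaled TPM of each of the 38 genes on a log axis, with 1 point for each library and genes grouped by role. Pcna is highest, at 250.6 to 342.4, and in most mitosis genes the point of replicate 1 lies below the other two.

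Among the genes of G1 control, the kinases that bind D-type cyclins stood highest. Cdk4 was at 26.18, 24.87 and 20.30 TPM in replicates 1, 2 and 3 (23.8 ± 3.09, SD, n = 3), and Cdk6 at 16.22, 16.08 and 16.19 TPM (16.2 ± 0.0737). Rb1, the substrate of these kinases and the brake on E2F, had 12.8 ± 1.64 TPM (SD, n = 3). On the rescaled scale the highest-to-lowest ratios of Cdk4, Cdk6 and Rb1 were 1.09, 1.27 and 1.14, beside a median of 1.14 over expressed genes. Cdk6, nearly level in deposited TPM, stood at 65.0, 73.1 and 82.4 rescaled TPM in replicates 1, 2 and 3.

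The D-type cyclins themselves differed in level and in spread. Ccnd1, the D-type cyclin most closely tied to growth factor signals, was at 6.87, 10.18 and 11.37 TPM, or 27.5, 46.3 and 57.9 rescaled TPM, a ratio of 2.10 between replicates 3 and 1. Ccnd3 was at 22.3, 26.1 and 22.2 rescaled TPM (5.22 ± 0.752 TPM, SD, n = 3). Ccnd2 was far lower, at 2.12, 2.36 and 1.53 rescaled TPM (0.45 ± 0.13 TPM). Ccnd1 was thus the G1 gene with the widest spread, and it was lowest in replicate 1, whereas Ccnd2 was lowest in replicate 3.

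The remaining G1 genes act at the passage into S phase. Cdkn1b, the inhibitor p27 that holds Cdk2 in check, was at 35.8, 36.5 and 30.5 rescaled TPM (7.66 ± 1.51 TPM), above E2f1 at 17.1, 20.9 and 21 (4.33 ± 0.243 TPM). Ccne1, the cyclin partner of Cdk2, was at 2.44, 2.5 and 2.39 rescaled TPM (0.543 ± 0.0702 TPM, SD, n = 3), and rested on 55, 162 and 66 counts. Its partner Cdk2 stood at 18.6, 17.5 and 18.4 rescaled TPM. For both the counting intervals of the highest and lowest library overlapped.

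Pcna, the sliding clamp that holds the replicative polymerases on DNA, was the highest of all 38 genes. It stood at 62.58, 58.74 and 67.27 TPM (62.9 ± 4.27, SD, n = 3), or 250.6, 267.0 and 342.4 rescaled TPM. The 6 subunits of the Mcm2-7 helicase form a single ring in equal numbers, yet their RNA levels ran from 1.87 ± 0.378 TPM for Mcm5 to 7.71 ± 0.377 TPM for Mcm6. In rescaled TPM, Mcm6 had 29.3, 35.3 and 41.0 and Mcm5 had 5.77, 9.09 and 11.0, and in replicate 3 Mcm7 was slightly below Mcm5, at 10.7. Mcm2, Mcm3 and Mcm4 lay between Mcm5 and Mcm6 in every library.

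The factors that load and start the helicase spanned a wide range. Cdt1, which brings the Mcm ring to origins, was at 4.66, 5.11 and 4.65 TPM, while its partner in loading, Cdc6, was the lowest gene of all 38, at 0.26, 0.25 and 0.29 TPM (0.267 ± 0.0208). Cdc6 rested on 33, 139 and 79 counts. Gins2, a subunit of the active helicase, was at 3.21, 2.91 and 3.02 TPM. The polymerase alpha-primase subunits Pola1 and Prim1 stood at 1.33 ± 0.0115 and 0.793 ± 0.0551 TPM, with Prim1 at 2.92, 3.73 and 4.22 rescaled TPM. All 12 replication genes were lowest in replicate 1 and highest in replicate 3 on the rescaled scale, none of them by 2-fold. The counting intervals of Cdc6 and Prim1 overlapped between those libraries.

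The genes of nucleotide supply followed the same order of libraries with wider differences. Rrm1, the large subunit of ribonucleotide reductase, was at 15.3, 18.9 and 23.3 rescaled TPM in replicates 1, 2 and 3. Rrm2, the small subunit whose amount limits the enzyme in cycling cells, was lower, at 3.20, 6.00 and 7.02 (1.17 ± 0.319 TPM, SD, n = 3; ratio 2.19). Tk1, thymidine kinase, was at 4.73, 5.73 and 10.9 (ratio 2.30), and here replicate 3 stood apart from the other libraries. Tyms, thymidylate synthase, was the lowest of the 4, at 3.00, 4.36 and 5.34 (0.92 ± 0.154 TPM).

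Of the mitosis genes, Cdk1, Top2a and Mki67 stood highest. Cdk1, the kinase that drives entry into mitosis, was at 5.22, 5.56 and 5.13 TPM (5.30 ± 0.227, SD, n = 3), or 20.9, 25.3 and 26.1 rescaled TPM. Its level was thus well above that of its cyclin partners, of which Ccnb1 had 3.32, 4.55 and 5.90 rescaled TPM. Top2a, which untangles sister chromatids, was at 11.8, 20.3 and 20.6, and Mki67, a coat protein of mitotic chromosomes and a standard marker of dividing cells, at 9.25, 13.5 and 13.1.

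Of the 12 mitosis genes, 6 differed by more than 2-fold between libraries, all 6 with replicate 1 lowest. Ccna2, the cyclin of late S phase and early mitosis, was at 2.64, 5.45 and 7.63 rescaled TPM (ratio 2.89, the widest of all 38 genes). Ccnb2, a B-type cyclin, was at 1.88, 4.91 and 4.94 (ratio 2.62). Its 31 counts in replicate 1 gave an exact 95% Poisson interval of 1.28 to 2.67, below those of replicate 2 (4.30 to 5.58) and replicate 3 (4.02 to 6.00).

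Regulators of spindle assembly and of the exit from mitosis gave the same picture. The kinase Plk1 was at 1.64, 3.86 and 3.87 rescaled TPM (ratio 2.36). Cdc20, which activates the anaphase-promoting complex, was at 1.72, 3.59 and 3.31 (ratio 2.09), with 32, 207 and 81 counts. Birc5 (survivin), a partner of Aurkb, was at 4.17, 8.41 and 8.45 (ratio 2.03), and the kinase Aurka at 2.32, 4.45 and 4.78 (ratio 2.06). In all 4 of these genes replicates 2 and 3 lay close together above replicate 1. Aurkb and Bub1 did not follow them, with 5.49, 5.41 and 6.06 for Aurkb and 2.68, 2.41 and 3.00 for the checkpoint kinase Bub1, and replicate 2 lowest in both. With TMM-normalised CPM, with DESeq2 size factors and with protein-coding transcripts only, all 12 mitosis genes, these included, were lowest in replicate 1. The share of all genes lowest in replicate 1 was not computed for these alternatives. Bub1 was the mitosis gene of lowest mean (0.597 ± 0.0702 TPM).

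Within each library, S phase genes stood above mitosis genes. The median log2(TPM + 0.1) of the 16 S phase genes exceeded that of the 12 mitosis genes by 1.53, 1.09 and 1.04 in replicates 1, 2 and 3, a mean of 1.22 ± 0.27 (SD, n = 3). The difference was positive in 3 of 3 libraries, with p = 0.25 by an exact two-sided sign-flip test, the smallest value that 3 libraries allow. Without the genes whose mean was under 1 TPM, the differences were 0.74, 0.31 and 0.52 (mean 0.52), and with a pseudocount of 1 TPM the mean was 0.79.

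The difference was widest in replicate 1, where the mitosis median was lowest. Between libraries that median of log2(TPM + 0.1) had an SD of 0.33, and the S phase median one of 0.06, both in deposited TPM. On that scale the falling protein-coding share lowers replicate 3. In rescaled TPM the S phase class median deviated from its mean over the libraries by -0.24, 0.04 and 0.20. The mitosis class median deviated by -0.58, 0.19 and 0.40. In rescaled TPM, the median deviation of the S phase genes from their own mean was -0.28, 0.01 and 0.25 log2 units in replicates 1, 2 and 3. That of the mitosis genes was -0.58, 0.22 and 0.30, and that of the G1 control genes was -0.01, 0.09 and -0.00. The G1 control genes had no common direction: Ccnd1 was highest and Ccnd2 and Cdkn1b were lowest in replicate 3. In the S phase genes replicate 2 lay between the others. The mitosis medians split into replicate 1 on one side and replicates 2 and 3 on the other. Of the mitosis genes, Ccna2 and Ccnb1 rose further from replicate 2 to replicate 3 (ratios of 1.40 and 1.30). Aurkb and Bub1 were lowest in replicate 2. By median ratio, replicate 3 exceeded replicate 2 by 1.17 in the S phase genes and by 1.02 in the mitosis genes. With 1 library of each number, these differences have no replicate check.

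**Figure D3:**
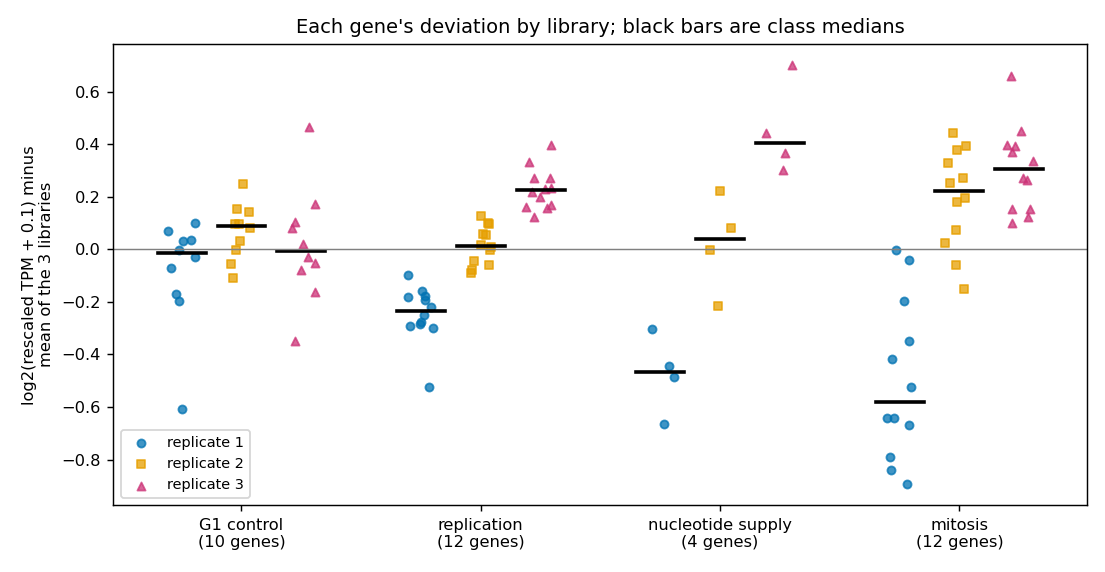
Deviation of log2(rescaled TPM + 0.1) in each library from the mean over the 3 libraries, with a point for each gene and a bar for the class median. The mitosis medians are lowest in replicate 1 (-0.58) and close together in replicates 2 and 3, and the G1 control medians lie between -0.01 and 0.09.

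Counted gene by gene, all 16 S phase genes were lowest in replicate 1 and highest in replicate 3, an order seen in 20.1% of expressed protein-coding genes and in 24.3% of genes between 0.25 and 10 TPM, the range that holds most of the 38. Among the mitosis genes, 8 of 12 had that order, and all 12 were higher in replicate 3 than in replicate 1 (54.6% of expressed genes and 58.7% of genes between 0.25 and 10 TPM). Over all 38 genes, 30 were highest in replicate 3 (38.3% of expressed genes), 7 in replicate 2 (31.3%) and 1, Cdk2, in replicate 1 (30.4%). Between 0.25 and 10 TPM these shares of all genes were 41.6%, 30.4% and 28%. Replicate 1 was the lowest library for 29 of the 38 (36.5% of expressed genes and 41.4% of those between 0.25 and 10 TPM).

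Signals of other origins were examined in the same libraries. RNA that stays in the nucleus was highest in replicate 3: Malat1 was at 1439, 1127 and 3884 rescaled TPM, and the 6 nuclear RNAs of the list summed to 1655, 1310 and 4421, with Meg3 at 0 counts. Malat1 was lowest in replicate 2. The median ratio of replicate 2 to replicate 1 was 1.82 in the mitosis genes and 1.22 in the S phase genes. The part of nuclear RNA in the order of the libraries was not tested for either class. The 10 markers of marrow progenitors and granulocyte precursors, cells that divide in marrow, summed to 5.93, 6.32 and 8.65 rescaled TPM, each at a low level, and 4 of the 10 were highest in replicate 1 and 5 in replicate 3. Cebpe and Ms4a3 had 0 counts in replicate 1 and at most 7 in any library. The sum was highest in the same library as the S phase genes, and its part in the result was not tested. The 4 T and NK markers summed to 1.36, 0.364 and 0.204 rescaled TPM and the 3 fibroblast markers to 0.0801, 0.227 and 0.458.

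A ratio of at least 2 between the highest and lowest library was found for 9 of the 38 genes, against 1.66% of expressed genes and 4.59% of genes between 0.25 and 10 TPM. The 9 were Ccnd1, Rrm2, Tk1, Ccna2, Ccnb2, Birc5, Aurka, Plk1 and Cdc20, and each was lowest in replicate 1. Both conditions were met by 0.687% of expressed genes and 2.4% of those between 0.25 and 10 TPM. A ratio of at least 1.5 was found for 16 of the 38 (6.25% and 13.8%). Without replicate 1 none of the 38 reached 2-fold, and without replicate 3 the number was 5. Leaving out a library can only lower this number, and replicate 1 was the lowest library of all 9. The share of all genes past 2-fold was not computed without single replicates. The 95% counting intervals of the highest and lowest library were apart for 31 of the 38 (59.1% of expressed genes), the exceptions being Ccne1, Cdk2, Cdc6, Prim1, Cdk1, Aurkb and Bub1. The coefficient of variation between libraries that edgeR estimated had a median of 0.235 for mitosis genes, 0.123 for S phase genes and 0.10 for G1 control genes, beside 0.104 over all 12430 genes kept. It was highest for Ccnb2 (0.338), Plk1 (0.319) and Ccna2 (0.313).

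The order of the libraries depended in part on the scale. On the deposited TPM, replicate 3 stood above replicate 1 for 23 of the 38 genes (6.7% of expressed genes and 13.8% of those between 0.25 and 10 TPM). The median ratio of replicate 3 to replicate 1 was 1.45 for mitosis, 1.12 for S phase and 0.781 for G1 control genes, beside 0.798 for expressed genes. On this scale 8 of the 16 S phase genes kept the order from replicate 1 lowest to replicate 3 highest. That order requires replicate 3 above replicate 1, which 6.7% of expressed genes had (13.8% between 0.25 and 10 TPM). The share of all genes with the full order was not computed on this scale. On the deposited TPM 3 genes reached 2-fold, Ccnb2, Ccna2 and Plk1 (2.48% of expressed genes and 5.2% of those between 0.25 and 10 TPM). In both scales the mitosis median was lowest in replicate 1. The median deviation of the mitosis genes was highest in replicate 3 in rescaled TPM (0.30) and in replicate 2 in deposited TPM (0.21).

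**Figure D4:**
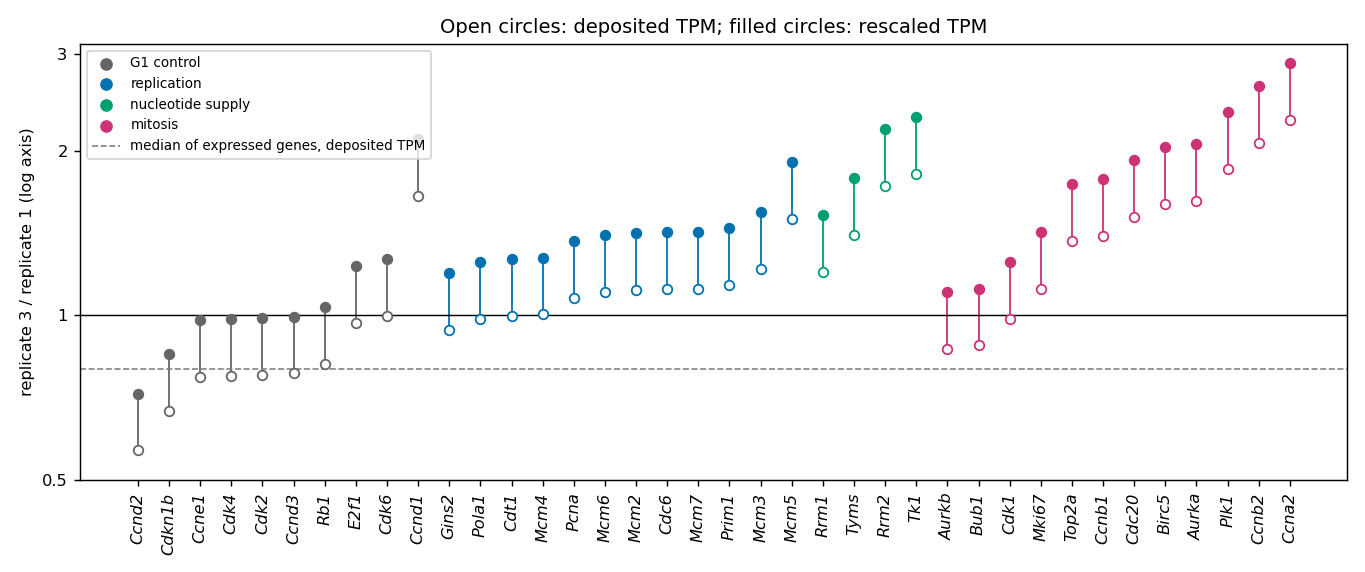
Ratio of replicate 3 to replicate 1 on a log axis for each of the 38 genes, which are grouped by class along the x axis. Open circles are deposited TPM and filled circles rescaled TPM. The dashed line is the median of expressed genes in deposited TPM. Filled circles lie above open ones by 1 common factor, and the mitosis genes reach the highest ratios on either scale.

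In a few of the 38 genes, a large share of the TPM lay in transcripts not annotated as coding. Transcripts of the class retained_intron held 49.2%, 38.1% and 47.0% of the TPM of Tk1 in replicates 1, 2 and 3. The corresponding shares were 37.5%, 39.5% and 50.2% for Mcm3, 40.9%, 39.2% and 38.4% for Cdk1, and 48.6%, 21.6% and 29.8% for Gins2. More than 5% was found in 9 of the 38 genes (23.7%), beside 18.4% of expressed genes. In Top2a, transcripts of the class processed_transcript held 37.0%. The leading transcript of Tyms was Tyms-205, annotated as nonsense_mediated_decay, with 64.9% of the gene's TPM. Protein-coding transcripts of Tyms amounted to 0.17, 0.23 and 0.25 TPM. With protein-coding transcripts only, the difference between S phase and mitosis genes was 0.96, and 15 of 16 S phase genes kept replicate 1 lowest and replicate 3 highest. The share of all genes with that order was not computed for protein-coding transcripts only.

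Other genes of the same processes were listed for comparison. Of 49 other S phase genes, 34 were at 1 TPM or more in every library (40.5% of all protein-coding genes were), led by Rfc2, a subunit of the loader of Pcna, at 14.3 ± 0.936 TPM. Their median deviations were -0.15, 0.06 and 0.13, and 24 of the 49 had replicate 1 lowest and replicate 3 highest (20.1% of expressed genes and 24.3% of those between 0.25 and 10 TPM). Uhrf1, which guides maintenance of DNA methylation, had the widest spread of those averaging 1 TPM or more, at 3.48, 6.68 and 7.48 rescaled TPM. Then came Dut (ratio 1.78), the enzyme that removes dUTP, and Rpa2 (ratio 1.48), part of the single-strand binding protein, while Pold4 (10.1 TPM) and Rfc1 (9.69 TPM) followed Rfc2 in level.

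Of 38 other mitosis genes, 13 were at 1 TPM or more in every library. Their median deviations were -0.36, 0.14 and 0.27, 30 of them were lowest in replicate 1, and 11 reached 2-fold. Between 0.25 and 10 TPM, 41.4% of all genes were lowest in replicate 1 and 4.59% reached 2-fold. Among those averaging 1 TPM or more, the widest ratio was that of Ube2c. Ube2c, the ubiquitin-conjugating enzyme of the anaphase-promoting complex, was at 2.60, 10.7 and 7.58 rescaled TPM (ratio 4.10), with 24, 293 and 88 counts. Within the same limit Prc1 and Cdca3 followed, with ratios of 2.44 and 2.16. Of the 3 of highest level, the centromeric histone Cenpa was at 91.6, 102.6 and 103.5 rescaled TPM and thus lowest in replicate 1, whereas Pttg1 (securin), at 60.0, 48.4 and 38.6, and Incenp, at 49.5, 46.8 and 40.9, were highest in replicate 1.

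**Figure D5:**
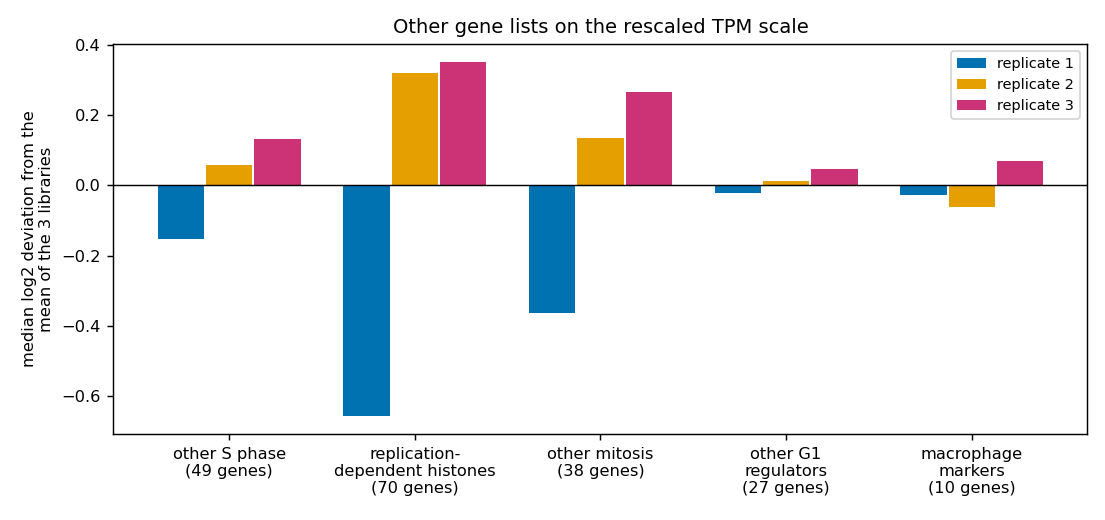
Median deviation of log2(rescaled TPM + 0.1) in each library for lists of genes outside the 38. The lists are other S phase genes, replication-dependent histone genes, other mitosis genes, other G1 regulators and macrophage markers. Replicate 1 is lowest in the mitosis, S phase and histone lists, and the other G1 regulators stay near 0.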

How the data were processed

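Cytosolic RNA of macrophages was sequenced in 3 libraries after removal of ribosomal RNA, with group and replicate number from the labels. Each library has 1 gene table and 2 transcript tables on mm10 with GENCODE M21, per the deposited notes. Tools, versions and strandedness are not stated there, so reads of antisense genes cannot be told apart. The expected counts deposited by the authors are estimated and can be fractional. Their deposited TPM have a fixed sum over all rows of a library, and the deposited FPKM served as an alternative. Rows that name no gene held 0.402%, 0.108% and 0.122% of the counts. They are included in the library depths given above and stayed out of the other sums.

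The 38 genes, the lists and the tests were chosen with earlier results of these data known. The rule for naming genes gave values in every library for the highest and lowest gene of each class, those at least 2-fold apart, those below 1 TPM in all libraries and a fixed set of regulators. Of each further list, the 3 highest and the 3 of widest spread were named. Rescaled TPM is TPM divided by the library's sum over nuclear-encoded protein-coding genes and put back on the TPM total. Ratios used no pseudocount, and log2 values had 0.1 TPM added, which understates differences of low genes. Expected counts were rounded, filtered with filterByExpr (minimum count 10), normalised by TMM and given to edgeR 4.0.16 with an intercept only. DESeq2 1.42.0 size factors were an alternative. Exact 95% Poisson intervals cover counting error only. Alternatives were other limits, pseudocounts, units and normalisations, and leaving out each library; protein-coding transcripts only and the deviation of class medians were chosen after seeing the data. The highest-to-lowest ratio, the deviations between libraries and the edgeR estimate were tested on simulated data, and the other procedures were not. The values of 2 further marker lists are not reported here. The first RefSeq window listed for a symbol was searched for motifs.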

Additional observations from a re-analysis of the deposited data

How the results depend on the processing

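Of 129 alternative values for 19 results, 3 reversed and 35 moved by more than the spread between libraries or, for counts, by over 1.5 times. The other 91 did not, or kept the direction in the case of the S phase minus mitosis difference (1.22), which was 0.52 over genes averaging 1 TPM or more and 0.79 with a pseudocount of 1 TPM; where no construction shows it, the cause was not tested. After rescaling, which multiplies every TPM, 38 of the 38 genes and 30 other mitosis genes passed 1 TPM, and the class medians were 28.9 (G1 control), 13.6 (replication), 6.26 (nucleotide supply) and 4.92 (mitosis). By the second set of transcript values, 16 of the 38, 20 other S phase, 7 other mitosis and 12 other G1 genes passed, and the medians were 2.51, 0.990, 0.632 and 0.426. A limit of 5 TPM left 9 of the 38. The replication median was 3.08 with posterior mean TPM, and 2.95 to 3.03 without single replicates. The S phase range of 0.53 (replicate 3 minus replicate 1) was 0.18 in deposited TPM. Between the libraries left without single replicates it was 0.22 to 0.50. The 0.22, without replicate 1, is replicate 3 minus replicate 2, a different pair. The mitosis range of 0.89 (replicate 3 minus replicate 1) was 0.034 to 0.86 without single replicates. The 0.034, without replicate 1, is again replicate 3 minus replicate 2. The small G1 range of 0.10 (replicate 2 minus replicate 1) turned to -0.012 with posterior mean TPM and -0.068 in deposited TPM. It was 0.041 with DESeq2 size factors and 0.32 by class medians. Without single replicates the values ran from -0.011 (replicate 3 minus replicate 1) to 0.13 (replicate 2 minus replicate 1). The 1 gene highest in replicate 1 became 3 with posterior mean TPM, 2 in the second transcript table, 2 with TMM, 2 with DESeq2 size factors and 11 in deposited TPM. In deposited TPM 14 were highest in replicate 2 and 13 in replicate 3. There 6.7% of expressed genes had replicate 3 above replicate 1. The share of all genes highest in each library was not computed for these alternatives. Genes past 2-fold (9) numbered 3 in deposited TPM and 0 to 8 without single replicates, where leaving out a library can only lower the number. At 1.5-fold, 16 passed.

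No paired analysis was possible because all libraries belong to 1 group. Genes below 1 TPM rest on as few as 31 counts in replicate 1, the shallowest library, so small differences were not detectable there.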

Other observations

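Replication-dependent histone genes, which are transcribed in S phase, differed more between libraries by median (range 1.01 log2 units) than the mitosis genes (0.89). Of 70 such genes, 52 were at 1 TPM or more in every library. Of the 65 with counts, 60 were lowest in replicate 1 (36.5% of expressed genes and 41.4% of those between 0.25 and 10 TPM). In rescaled TPM 40 reached 2-fold (1.66% and 4.59%), and a gene at 0 in its lowest library counted as past it. Together they held 1901, 3384 and 3371 rescaled TPM in replicates 1, 2 and 3, and their median deviations were -0.66, 0.32 and 0.35, so replicates 2 and 3 lay together as in the mitosis genes. Hist2h2aa2 had the highest mean, 73.7 TPM, with 220.4, 414.7 and 381.5 rescaled TPM. Hist1h4h was at 149.3, 218.1 and 218.2. The linker histone gene Hist1h1c differed from them, at 213.9, 214.1 and 212.8. Among those averaging 1 TPM or more and with counts in every library, the widest ratios were those of Hist1h2af (3.74) and Hist1h2an (3.73), and Hist1h2ah had 0, 92.6 and 41.0 counts. Many histone genes are near-identical copies whose reads are split by the estimate, so single members are uncertain.

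Of 27 other regulators of G1, 20 were at 1 TPM or more in every library, with median deviations of -0.02, 0.01 and 0.05. Cdkn1a, the inhibitor p21, was at 72.2 ± 13.8 TPM (SD, n = 3), or 345.9, 325.1 and 298.7 rescaled TPM, which is of the order of Pcna. Btg2, an antiproliferative early response gene, was at 266.9, 139.2 and 272.4 rescaled TPM and had the widest ratio among those averaging 1 TPM or more (1.96), with replicate 2 lowest. Ccng1 had 37.4 TPM. Within the same limit Cdkn1c and E2f5 were next, with ratios of 1.37 and 1.33. Of all 27 genes, 2 reached 2-fold (1.66% of expressed genes and 4.59% of those between 0.25 and 10 TPM).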
